A study of Homo sapiens with 12 samples.

Results

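The genes described here encode splicing factors of 6 families, and they were taken by name: SRSF (the SR proteins), HNRNP (the heterogeneous nuclear ribonucleoproteins), SF3A and SF3B (U2 snRNP subunits), SNRP (snRNP proteins), PRPF (pre-mRNA processing factors) and LSM (Sm-like proteins). Of 19647 genes with Ensembl transcripts in the deposited table, 85 carried such a name, and 78 of them reached an FPKM (fragments scaled by transcript length and by mapped reads) of 1 in no fewer than 3 of 12 libraries. These 78 comprise 11 of 12 SRSF genes, 20 of 26 HNRNP genes, all 9 SF3A and SF3B genes, all 12 SNRP genes, all 13 PRPF genes and all 13 LSM genes. SRSF12, HNRNPA1L2, HNRNPA1P48 and the 4 HNRNPCL genes stayed below the limit. The rule used names and levels, not differences between groups.

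The study compared A549 cells, a human non-small cell lung cancer line, in which the orphan nuclear receptor NR0B1 had been overexpressed (NR0B1 OE, 3 libraries) or knocked down by short hairpin RNA (shNR0B1, 3 libraries). Each had its own control of the same line, labelled as wild type: OEC for overexpression and shNC for knockdown, with 3 libraries each. No treatment was given to any group. The labels name neither the vectors and hairpins nor whether a group is 1 clone or a pool, and they do not say that libraries of a group came from separate cultures, so p-values measure the spread between these libraries, which may be technical.

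Splicing removes introns from pre-mRNA in the spliceosome, which is built from small nuclear RNAs wrapped in rings of Sm or LSm proteins. SR proteins bind exons through RNA recognition motifs and recruit the splicing machinery through domains rich in arginine and serine, whereas hnRNP proteins coat the nascent transcript and often act against them. Many SR protein genes are known to hold down their own mRNA by splicing in a poison exon that sends the transcript to nonsense-mediated decay.

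The 12 libraries held between 15049011 and 22797076 expected counts. NR0B1 itself stood at 98.9, 81.8 and 84.1 CPM (counts scaled by library size) in NR0B1 OE libraries, against 17.9, 60.1 and 55.2 CPM in OEC libraries (edgeR adjusted p = 0.0912, not called). Its level was 2.99, 3.31 and 5.84 CPM in shNR0B1 libraries, against 16.3, 21.1 and 13.3 CPM in shNC libraries (edgeR adjusted p = 0.00593). A pair of libraries stood apart from their own groups. OEC replicate 1 correlated with its fellow libraries at r = 0.94 and 0.93 across genes, while these correlated with each other at 0.98. shNR0B1 replicate 2 did so at 0.92 and 0.90, while the other two stood at 0.96. All 5 epithelial markers were tested, with a summed level of 1257 to 2953 FPKM, whereas fibroblast and endothelial markers summed to at most 0.95 and 0.35 FPKM. The 5 immune markers summed to between 15.1 and 59.7 FPKM, with CD3E at 0 throughout, and the 5 markers of alveolar type II cells summed to at most 0.52 FPKM, with SFTPA1 at 0. In such bulk libraries, fewer cells of a kind and less RNA per cell cannot be told apart.

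The most abundant members in A549 cells were hnRNP genes. On the FPKM scale, HNRNPA1, which binds UAG-containing elements and represses many exons, averaged 382.2 ± 70.2 FPKM over the 12 libraries (SD). HNRNPC averaged 354.1 ± 49.6 FPKM, within the spread of HNRNPA1, and HNRNPA2B1 averaged 258.9 ± 43.5 FPKM. The leading members of the other families lay lower: SNRPB, which encodes the SmB/B′ ring proteins, at 176.2 ± 21.8 FPKM, SF3B1, the branch-site-binding U2 subunit, at 134.7 ± 16.6 FPKM, and PRPF8, the core scaffold of the catalytic centre, at 116.2 ± 24.5 FPKM. SRSF1 led the SR proteins at 81.4 ± 45.2 FPKM, the widest spread relative to its mean among these family leaders. LSM14A, a P-body protein, led the LSM family at 73.5 ± 9.90 FPKM. At the low end stood LSM11, a subunit of the U7 snRNP that processes histone mRNA, at 1.26 FPKM. The intervals of 1 SD of SF3B1 and PRPF8 overlapped, whereas those of SNRPB and SF3B1 did not. Neither order held in every library. SF3B1 stood at 153 FPKM in OEC replicates 2 and 3, against 149 FPKM for SNRPB. PRPF8 lay above SF3B1 in shNC libraries (143, 135 and 141 FPKM against 117, 123 and 127 FPKM) and below it in the other groups.

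Summed by family, the SRSF, HNRNP and PRPF genes did not overlap between NR0B1 OE and OEC libraries. The summed level of the 11 SRSF genes was 599.4, 529.5 and 580.0 FPKM in NR0B1 OE libraries, against 388.4, 289.0 and 280.6 FPKM in OEC libraries. In this family OEC replicate 1 was the highest of its group. In shNR0B1 libraries the SRSF sum was 539.6, 348.8 and 709.9 FPKM, against 482.6, 473.3 and 444.4 FPKM in shNC libraries. Here shNR0B1 replicate 2 lay below every shNC library and the other two lay above. The HNRNP sum was 2746 ± 51.0 FPKM in NR0B1 OE cells and 2391 ± 76.4 FPKM in OEC cells, and 2679 ± 479.6 FPKM in shNR0B1 cells and 2965 ± 64.5 FPKM in shNC cells (SD, n = 3 each). The PRPF sum was 330.0 ± 9.35 FPKM in NR0B1 OE cells and 287.8 ± 11.6 FPKM in OEC cells, and 370.8 ± 55.6 FPKM in shNR0B1 cells and 429.2 ± 10.8 FPKM in shNC cells (SD, n = 3 each). The SF3A and SF3B sum was 495.1 ± 12.5 FPKM in NR0B1 OE cells and 489.2 ± 25.7 FPKM in OEC cells, a difference below the SD of either group (n = 3 each). These sums were not tested.

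With NR0B1 overexpression, most splicing genes did not pass, and those that did were mostly rises. Of the 78 genes, 13 rose and 1 fell against OEC at an adjusted p below 0.05 by the quasi-likelihood test of edgeR, adjusted by Benjamini-Hochberg over all genes tested, and 64 did not pass. Among all 11908 genes tested, 18.1% were called (9.87% higher and 8.2% lower), so the share of members called, 17.9%, was near that of all genes, while 13 of the 14 calls were rises. The median log2 fold change was 0.19 over the members and -0.03 over all genes tested. All 3 NR0B1 OE libraries lay above all 3 OEC libraries for 39 members, and below them for 7, against 21.6% and 21.9% of all genes. The rises comprised 5 of 11 SRSF genes, 5 of 13 PRPF genes, 2 of 20 HNRNP genes and 1 of 12 SNRP genes, and the fall was in LSM11. No SF3A or SF3B gene passed. These counts moved with single libraries: 3 members rose when OEC replicate 2 was left out and 27 when shNR0B1 replicate 2, which enters only the estimate of the spread, was left out. Without shNR0B1 replicate 2, 34.6% of members were higher, against 14.7% of all genes. Without both libraries that stand apart, 28 rose and 8 fell, among 37.5% of all genes called.

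**Figure D1:**
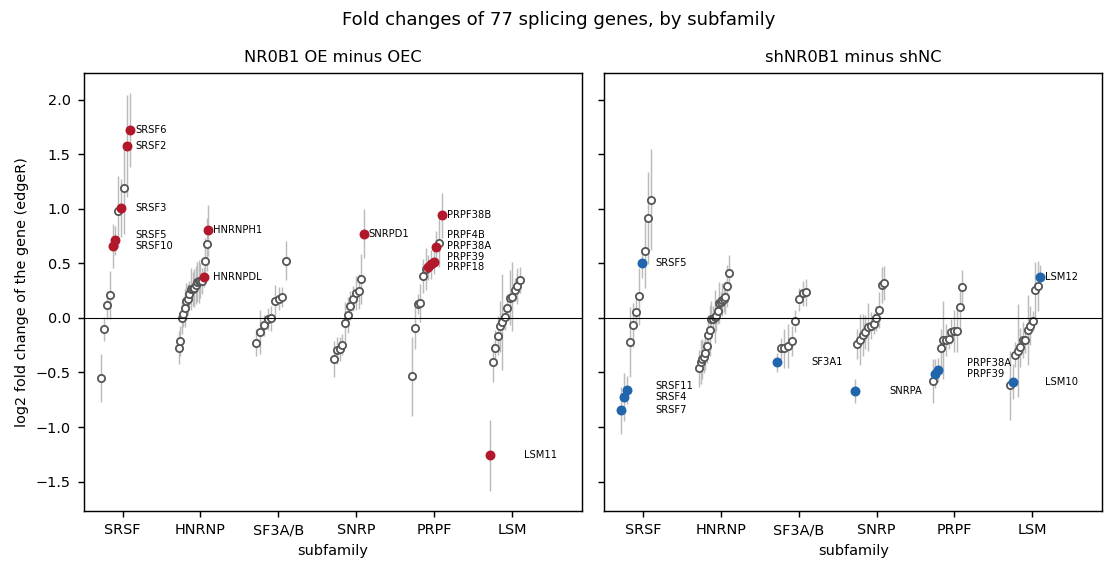
Log2 fold change of 77 of the 78 genes (y axis, edgeR, with the standard error as grey bars) by subfamily (x axis), for NR0B1 OE minus OEC on the left and shNR0B1 minus shNC on the right. Filled points are genes with an adjusted p below 0.05, 13 above and 1 below 0 on the left, and 2 above and 8 below 0 on the right.

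Among the SR proteins, SRSF6 had the highest fold change of all members. SRSF6, which regulates splicing of tau exon 10 among others, stood at 381, 451 and 444 CPM in NR0B1 OE libraries, against 213, 93.1 and 81.3 CPM in OEC libraries. OEC replicate 1 lay well above its fellows yet below every NR0B1 OE library. The log2 fold change was 1.72 ± 0.34 (SE, edgeR adjusted p = 0.00844). SRSF5, an SR protein known for insulin-responsive splicing, stood at 128, 139 and 130 CPM in NR0B1 OE libraries, against 79.0, 83.9 and 79.3 CPM in OEC libraries. Its groups were tight and far apart, with a log2 fold change of 0.71 ± 0.14 (SE, edgeR adjusted p = 0.00718). SRSF3, the smallest SR protein and a known oncogene, stood at 235, 219 and 248 CPM in NR0B1 OE libraries, against 128, 117 and 102 CPM in OEC libraries. The groups did not overlap and the log2 fold change was 1.01 ± 0.27 (SE, edgeR adjusted p = 0.026). SRSF2, which contacts exonic enhancers and is often mutated in myeloid neoplasms, stood at 280, 214 and 252 CPM in NR0B1 OE libraries, against 145, 52.4 and 52.5 CPM in OEC libraries. Here too OEC replicate 1 was the highest of its group, and the log2 fold change was 1.58 ± 0.47 (SE, edgeR adjusted p = 0.0396). SRSF10, a splicing repressor when dephosphorylated, also rose, by a log2 fold change of 0.66 (edgeR adjusted p = 0.0444), and is named after its value was seen. The calls of SRSF5 and SRSF6 held in all 12 omissions of 1 library. Those of SRSF3, SRSF2 and SRSF10 were lost without any 1 of the 3 NR0B1 OE libraries or without OEC replicate 2 or 3, those of SRSF2 and SRSF10 also without any 1 of the shNC libraries, and that of SRSF10 also without shNR0B1 replicate 1, with adjusted p up to 0.0915, 0.133 and 0.149. Without the filter on low values the calls of SRSF2 (adjusted p = 0.0671) and SRSF10 (0.0577) were lost.

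SRSF1, the SR protein with the highest level and a proto-oncogene that MYC is known to activate, stood at 362, 261 and 312 CPM in NR0B1 OE libraries, against 220, 92.3 and 97.1 CPM in OEC libraries. The groups did not overlap, but OEC replicate 1 lay closer to the NR0B1 OE libraries than to its fellows, and the log2 fold change of 1.19 ± 0.42 did not pass (SE, edgeR adjusted p = 0.0722). Without OEC replicate 1 it was 1.72 (edgeR adjusted p = 0.0165). The counts behind these values are a part of the gene's reads, because 58.2% of the counts that carry the symbol SRSF1 sit on transcripts the authors assembled themselves, which were left out of the gene values. With the assembled transcripts added, the log2 fold change of SRSF1 was 1.11 (edgeR adjusted p = 0.00415).

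**Figure D2:**
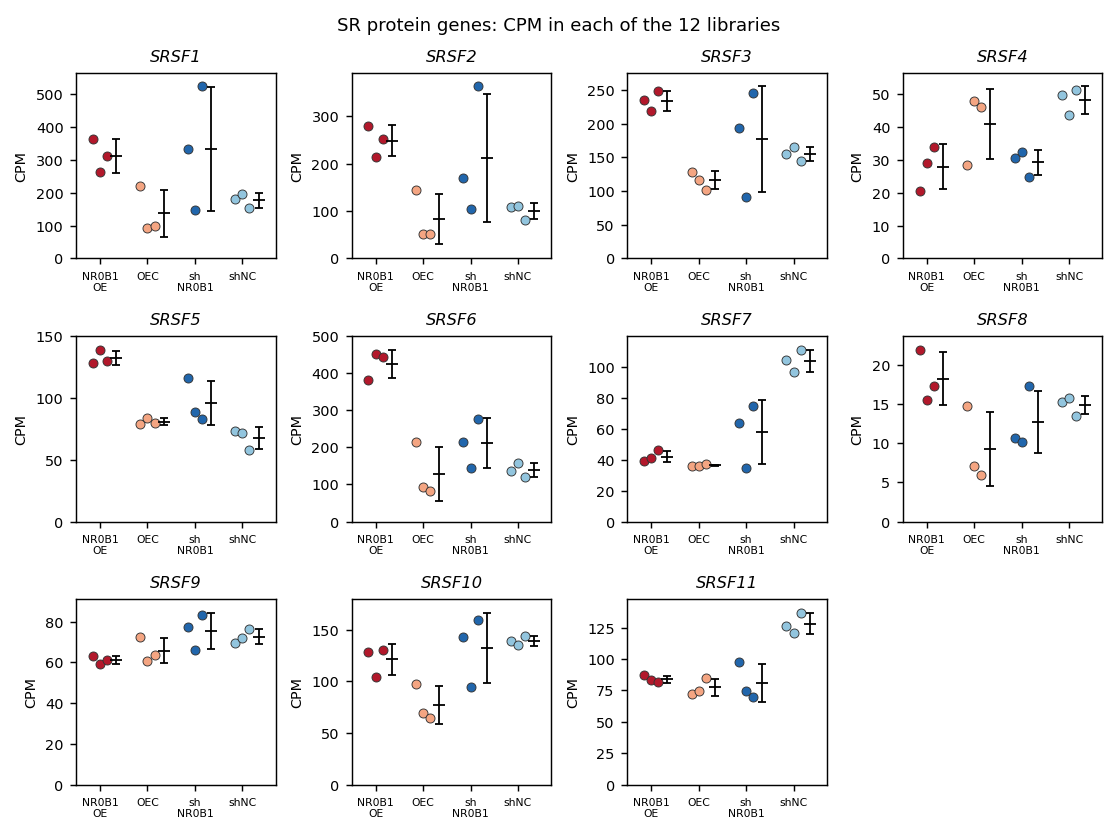
CPM of the 11 SRSF genes (y axis, from 0) in each library of NR0B1 OE, OEC, shNR0B1 and shNC cells (x axis). Each point is 1 library and the black bar is the mean with its SD (n = 3). SRSF6 lies at 381 to 451 CPM in NR0B1 OE libraries and at 81.3 to 213 CPM in OEC libraries, and shNR0B1 replicate 2, the middle point of its group, is the lowest of that group for SRSF1, SRSF2, SRSF3 and SRSF6.

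The stretch just upstream of the start of 4 genes that rose is printed because these genes rose together with NR0B1 overexpression, SRSF5 also with knockdown, and PRPF38A fell with knockdown. Each is the 250 bases before the RefSeq start on GRCh38.p14, read 5′ to 3′ on the plus strand, at chr6:36594112-36594361 for SRSF3, chr14:69766892-69767141 for SRSF5, chr20:43457646-43457895 for SRSF6 and chr1:52404352-52404601 for PRPF38A. Capitals mark matches to 3 short motifs, each searched on both strands. The first was the E-box, CACGTG. The second was the half-site of the cyclic AMP response element (CRE), TGACGT. The third was the ETS motif, CCGGAAG. No motif overlapped another in these stretches.
SRSF3: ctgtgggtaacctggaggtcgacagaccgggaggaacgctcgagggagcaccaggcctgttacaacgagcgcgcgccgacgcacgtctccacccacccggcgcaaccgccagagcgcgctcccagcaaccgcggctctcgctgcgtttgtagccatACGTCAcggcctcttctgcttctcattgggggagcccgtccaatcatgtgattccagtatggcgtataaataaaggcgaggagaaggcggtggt
SRSF5: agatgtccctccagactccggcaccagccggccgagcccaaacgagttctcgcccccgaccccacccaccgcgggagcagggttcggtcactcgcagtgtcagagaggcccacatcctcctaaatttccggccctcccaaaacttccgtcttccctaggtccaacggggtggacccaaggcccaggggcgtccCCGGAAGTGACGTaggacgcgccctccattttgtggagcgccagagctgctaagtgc
SRSF6: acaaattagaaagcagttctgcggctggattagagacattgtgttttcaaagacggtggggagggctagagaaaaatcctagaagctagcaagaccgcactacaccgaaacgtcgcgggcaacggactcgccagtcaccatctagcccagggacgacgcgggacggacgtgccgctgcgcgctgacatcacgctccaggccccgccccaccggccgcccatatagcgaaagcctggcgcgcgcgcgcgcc
PRPF38A: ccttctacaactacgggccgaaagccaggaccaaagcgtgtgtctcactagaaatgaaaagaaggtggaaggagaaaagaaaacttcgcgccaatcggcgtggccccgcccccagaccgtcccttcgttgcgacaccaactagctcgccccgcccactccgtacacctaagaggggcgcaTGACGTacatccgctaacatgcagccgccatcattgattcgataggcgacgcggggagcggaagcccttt
Counted from the start, SRSF3 held the CRE half-site from position -94 and PRPF38A from position -70, and SRSF5 held an ETS motif from position -57 directly before a CRE half-site from position -50, with no shared base. None of the 3 motifs lay in the SRSF6 stretch. Of the 78 genes, 67 had an entry in the RefSeq table: 22 of them (32.8%) held the ETS motif, 12 (17.9%) the CRE half-site and 7 (10.4%) the E-box. Among all 27305 genes of that table the shares were 10.2%, 8.62% and 7.73%, and among the 9421 tested genes with an entry 19.7%, 13.1% and 11.5%. These are letter matches and say nothing of binding.

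Of the 20 hnRNP genes, HNRNPDL and HNRNPH1 rose and 0 fell by edgeR (0 at an unadjusted p under 0.05 and 0 by DESeq2). HNRNPDL, a paralogue of HNRNPD that binds AU-rich RNA, stood at 231, 214 and 229 CPM in NR0B1 OE libraries, against 183, 163 and 174 CPM in OEC libraries. The groups did not overlap, and the log2 fold change was 0.38 ± 0.09 (SE, edgeR adjusted p = 0.0207). HNRNPH1, which binds G-rich runs, stood at 512, 515 and 517 CPM in NR0B1 OE libraries, against 355, 265 and 265 CPM in OEC libraries. Its NR0B1 OE libraries were nearly equal and all lay above OEC replicate 1, the highest control (log2 fold change 0.80 ± 0.23, SE, edgeR adjusted p = 0.0358). HNRNPA1, at 736, 773 and 778 CPM in NR0B1 OE libraries against 613, 776 and 757 CPM in OEC libraries, overlapped between the groups (log2 fold change 0.09, edgeR adjusted p = 0.742). The HNRNPDL call was lost without NR0B1 OE replicate 1 or 3 or OEC replicate 2 or 3 (adjusted p up to 0.0845), and the HNRNPH1 call without any NR0B1 OE library, OEC replicate 2 or 3 or shNC replicate 1 or 2 (up to 0.117). HNRNPA1 and HNRNPH1 have near-identical copies elsewhere in the genome, so their counts are uncertain to the extent that shared reads were split.

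Of the 12 SNRP genes SNRPD1 alone rose and 0 fell by edgeR (4 falls at an unadjusted p under 0.05 and 0 by DESeq2). Without both libraries that stand apart, 1 SNRP gene rose and 4 fell (33.3% lower, against 17.6% of all genes). Of the 9 SF3A and SF3B genes 0 passed by edgeR (1 at an unadjusted p under 0.05, and the same number by DESeq2, as a rise). SNRPD1, which encodes the Sm protein D1, stood at 84.7, 76.7 and 80.0 CPM in NR0B1 OE libraries, against 51.3, 44.8 and 45.2 CPM in OEC libraries. All NR0B1 OE libraries lay well above all OEC libraries, with a log2 fold change of 0.77 ± 0.22 (SE, edgeR adjusted p = 0.0352). SNRPB, the SNRP gene with the highest level, stood at 236, 222 and 236 CPM in NR0B1 OE libraries against 214, 198 and 202 CPM in OEC libraries, and SF3B1 at 366, 352 and 405 CPM in NR0B1 OE libraries against 367, 460 and 486 CPM in OEC libraries. Neither passed (log2 fold change 0.18, edgeR adjusted p = 0.306 for SNRPB, and -0.23, edgeR adjusted p = 0.214 for SF3B1). The SNRPD1 call was lost without any NR0B1 OE library, OEC replicate 2 or 3 or shNC replicate 1 or 2 (adjusted p up to 0.108).

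Of the 13 PRPF genes 5 rose and 0 fell by edgeR (0 falls at an unadjusted p under 0.05 and 0 by DESeq2). PRPF38B, a paralogue of the spliceosome activation factor PRPF38A, stood at 37.0, 30.4 and 33.7 CPM in NR0B1 OE libraries, against 18.6, 14.5 and 19.6 CPM in OEC libraries. The groups lay far apart, with a log2 fold change of 0.94 ± 0.20 (SE, edgeR adjusted p = 0.0118). PRPF38A, which is needed to activate the assembled tri-snRNP spliceosome, stood at 46.0, 48.6 and 44.2 CPM in NR0B1 OE libraries, against 32.6, 30.9 and 34.2 CPM in OEC libraries. Both groups were tight (log2 fold change 0.51 ± 0.11, SE, edgeR adjusted p = 0.0119). PRPF4B, a kinase that phosphorylates tri-snRNP proteins, stood at 84.0, 80.9 and 82.1 CPM in NR0B1 OE libraries, against 59.5, 45.1 and 53.3 CPM in OEC libraries. These did not overlap either (log2 fold change 0.65 ± 0.15, SE, edgeR adjusted p = 0.0157). PRPF18, a factor of the second catalytic step, stood at 32.8, 37.0 and 30.8 CPM in NR0B1 OE libraries, against 24.1, 25.8 and 23.1 CPM in OEC libraries (log2 fold change 0.46 ± 0.12, SE, edgeR adjusted p = 0.0209). PRPF39, a U1 snRNP-associated protein, stood at 42.0, 36.6 and 42.3 CPM in NR0B1 OE libraries, against 27.4, 26.8 and 31.8 CPM in OEC libraries (log2 fold change 0.49 ± 0.13, SE, edgeR adjusted p = 0.0302). For both genes every NR0B1 OE library lay above every OEC library. PRPF8 did not pass: it stood at 757, 978 and 896 CPM in NR0B1 OE libraries, against 728, 1050 and 1020 CPM in OEC libraries (edgeR adjusted p = 0.774), and the groups overlapped. Leaving out OEC replicate 2 took the adjusted p of PRPF38B to 0.0517, of PRPF38A to 0.052, of PRPF4B to 0.0654 and of PRPF39 to 0.104. The PRPF4B call was also lost without OEC replicate 3, the PRPF39 call also without any NR0B1 OE library, and the PRPF18 call without NR0B1 OE replicate 2 or OEC replicate 3 (adjusted p up to 0.0851).

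In the LSM family LSM11 fell, at 5.75, 7.42 and 3.60 CPM in NR0B1 OE libraries, against 8.08, 17.0 and 15.2 CPM in OEC libraries (log2 fold change -1.26 ± 0.32, SE, edgeR adjusted p = 0.0236). The groups lay close, since OEC replicate 1 was only just above the highest NR0B1 OE library. The fall rests on the Ensembl transcript alone: assembled transcripts with this symbol held 61.6% of its counts in NR0B1 OE cells and 6.58% in OEC cells, and with them added the log2 fold change was 0.03 (edgeR adjusted p = 0.951). The call was also lost without NR0B1 OE replicate 1 or 3 or OEC replicate 2 or 3 (adjusted p up to 0.0912) and with only the 6 libraries compared (0.0558). LSM14A stood at 252, 279 and 265 CPM in NR0B1 OE libraries, against 226, 256 and 265 CPM in OEC libraries, and the groups overlapped (edgeR adjusted p = 0.515).

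With NR0B1 knockdown, most splicing genes did not pass either. With all libraries those that did were mostly falls, at the same share as among all genes, while rises were scarcer. Against shNC, 2 of the 78 genes rose, 9 fell and 67 did not pass. The 14.1% of members called compares with 23.9% of all genes tested. Among members 2.56% were higher and 11.5% lower, against 12.4% and 11.5% of all genes. The median log2 fold change was -0.12 over the members and 0.03 over all genes. All 3 shNR0B1 libraries lay above all 3 shNC libraries for 3 members, and below them for 18, against 20.2% and 20.6% of all genes. The falls were in 3 SRSF, 3 PRPF, 1 SF3A, 1 SNRP and 1 LSM gene, the rises in SRSF5 and LSM12. Of the 20 HNRNP genes 0 passed by edgeR, while 1 was higher and 2 were lower at an unadjusted p under 0.05, and 2 were lower by DESeq2.

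These counts turn on shNR0B1 replicate 2. That library was the lowest of its group for 60 of the 78 members, whereas it was the lowest for 36.4% of all genes, and shNR0B1 replicate 3 was the highest for 50 members, against 34.9% of all genes. Relative to the mean of the rest of the group, the median log2 deviation of the members was -0.41 in replicate 2 and 0.35 in replicate 3. Over all genes it was 0.03 and -0.00. Without shNR0B1 replicate 2, 14 members rose and 9 fell in the knockdown, among 28.8% of all genes called, and the median over members was 0.02. Without both libraries that stand apart, 18 rose and 11 fell, among 37.7% of all genes called. The members that rose without replicate 2 included SRSF1 (log2 fold change 1.28, edgeR adjusted p = 0.0188), SRSF2 (1.41, adjusted p = 0.0322) and SRSF3 (0.51, adjusted p = 0.0142), named after their values were seen. Leaving out shNC replicate 3 gave 4 falls, leaving out shNR0B1 replicate 3 gave 14, and leaving out shNR0B1 replicate 1 gave 0 rises. Without shNC replicate 3 the calls over all genes also dropped, from 2851 to 1503. With only the 6 shNR0B1 and shNC libraries in the fit, 0 members rose and 4 fell.

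**Figure D3:**
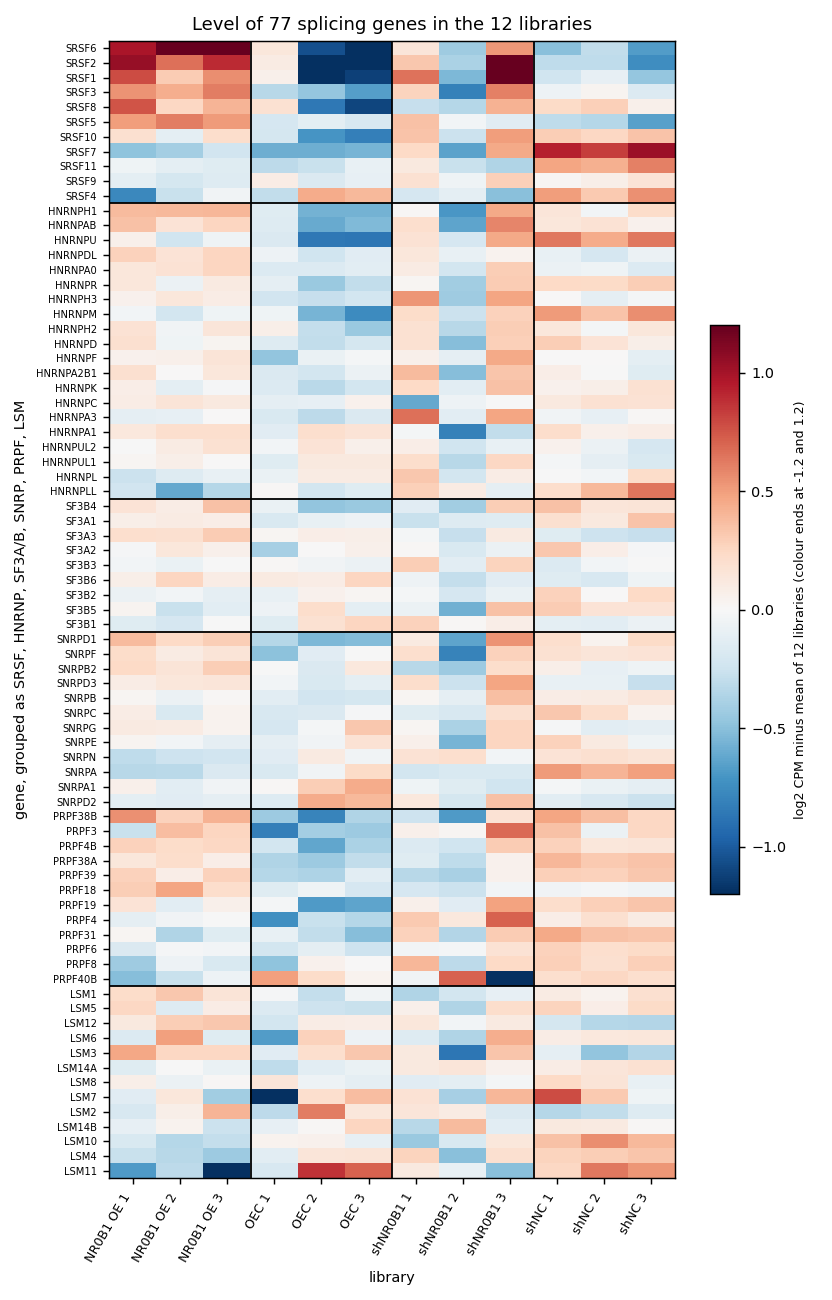
Level of 77 of the 78 genes (rows, grouped by subfamily and ordered by their fold change with overexpression) in the 12 libraries (columns), as log2 CPM minus the gene's mean over all libraries, in colour from -1.2 (blue) to 1.2 (red). The columns of shNR0B1 replicates 2 and 3 contrast over most genes, and OEC replicate 1 differs from its fellows for SRSF1, SRSF2 and SRSF6.

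The SR genes went both ways in the knockdown. SRSF11, which interacts with U2AF and other RS-domain proteins, stood at 97.8, 74.9 and 70.1 CPM in shNR0B1 libraries, against 126, 121 and 137 CPM in shNC libraries. All shNR0B1 libraries lay below all shNC libraries, with a log2 fold change of -0.66 ± 0.13 (SE, edgeR adjusted p = 0.00448). SRSF7, an SR protein with a zinc knuckle, stood at 63.9, 34.7 and 74.4 CPM in shNR0B1 libraries, against 104, 96.4 and 111 CPM in shNC libraries. These did not overlap either (log2 fold change -0.84 ± 0.22, SE, edgeR adjusted p = 0.0169). SRSF4, a large SR protein close to SRSF5 and SRSF6 in sequence, stood at 30.4, 32.3 and 24.7 CPM in shNR0B1 libraries, against 49.7, 43.4 and 51.2 CPM in shNC libraries (log2 fold change -0.72 ± 0.22, SE, edgeR adjusted p = 0.0363). In contrast SRSF5 rose, at 116, 88.6 and 82.8 CPM in shNR0B1 libraries, against 73.4, 71.6 and 57.7 CPM in shNC libraries. The lowest shNR0B1 library lay above the highest shNC library (log2 fold change 0.50 ± 0.14, SE, edgeR adjusted p = 0.0211), so SRSF5 rose in both arms. SRSF1 stood at 331, 146 and 522 CPM in shNR0B1 libraries, against 179, 197 and 153 CPM in shNC libraries, with replicate 2 alone below the shNC libraries (edgeR adjusted p = 0.135). The SRSF7 call was lost without shNC replicate 3 (adjusted p = 0.0649), the SRSF5 call without shNR0B1 replicate 1 or shNC replicate 3 (up to 0.0926), and the SRSF4 call without NR0B1 OE replicate 2, shNR0B1 replicate 1 or 3 or any shNC library (up to 0.111). With only the 6 libraries compared the calls of SRSF5 (adjusted p = 0.0911) and SRSF7 (0.0753) were lost.

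As for SRSF1, much of SRSF4, SRSF6 and SRSF7 sits on assembled transcripts, with 56.8%, 25.6% and 49.4% of the counts over the 12 libraries. Those of SRSF7 stood at 18.9, 18.8 and 20.1 FPKM in NR0B1 OE libraries, against 8.27, 5.38 and 5.49 FPKM in OEC libraries, and at 13.8, 6.99 and 17.3 FPKM in shNR0B1 libraries, against 11.2, 12.1 and 12 FPKM in shNC libraries. With them added, SRSF7 rose with overexpression (log2 fold change 1.06, edgeR adjusted p = 0.0111, against 0.21 and 0.528 without them) and did not pass in the knockdown (-0.42, edgeR adjusted p = 0.206). The assembled transcripts of SRSF6 stood at 69.6, 53.7 and 75.0 FPKM in NR0B1 OE libraries, against 17.5, 4.24 and 4.47 FPKM in OEC libraries, so they differed in the same direction as its Ensembl transcript. SRSF4 was lower in the knockdown with them too (-0.37, edgeR adjusted p = 0.0342), while with overexpression its log2 fold change was 0.34 with them and -0.55 without them, neither past the threshold (edgeR adjusted p = 0.0574 and 0.105). Of the 78 genes, 14 had 10% or more of their counts on assembled transcripts and 38 had any.

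Outside the SR family, the U1 and U2 snRNPs and the PRPF family held 5 falls. SNRPA, a stem-loop-binding protein of the U1 snRNP, had the smallest adjusted p of all members: it stood at 67.4, 69.2 and 69.0 CPM in shNR0B1 libraries, against 112, 104 and 110 CPM in shNC libraries. The groups lay far apart (log2 fold change -0.67 ± 0.11, SE, edgeR adjusted p = 0.00216). Assembled transcripts held 39.2% of the counts of SNRPA. With them added, SNRPA fell in the knockdown (-0.69, edgeR adjusted p = 0.0019) and with overexpression too (-0.37, edgeR adjusted p = 0.0474, against -0.28 and 0.0948 without them). SF3A1, a subunit of the U2 snRNP, stood at 144, 156 and 157 CPM in shNR0B1 libraries, against 198, 188 and 221 CPM in shNC libraries (log2 fold change -0.41 ± 0.09, SE, edgeR adjusted p = 0.00855). In the PRPF family 3 genes fell, PRPF38A and PRPF39 among them. PRPF38A stood at 37.8, 33.7 and 43.3 CPM in shNR0B1 libraries, against 55.1, 52.1 and 53.1 CPM in shNC libraries (log2 fold change -0.48 ± 0.11, SE, edgeR adjusted p = 0.0101). PRPF39 stood at 27.6, 26.5 and 35.9 CPM in shNR0B1 libraries, against 42.4, 42.2 and 43.5 CPM in shNC libraries (log2 fold change -0.51 ± 0.13, SE, edgeR adjusted p = 0.0194). In each of these the groups did not overlap. The calls of SRSF11, SNRPA, SF3A1 and PRPF38A held in all 12 omissions of 1 library, but with only the 6 libraries compared the edgeR adjusted p of SF3A1 was 0.0521 and that of PRPF39 was 0.0623. The PRPF39 call was lost without shNR0B1 replicate 1 or any shNC library (adjusted p up to 0.0676).

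The LSM family had a fall and a rise. LSM10, like LSM11 a U7 snRNP subunit, stood at 10.3, 12.4 and 15.4 CPM in shNR0B1 libraries, against 18.0, 20.7 and 18.5 CPM in shNC libraries (log2 fold change -0.59 ± 0.16, SE, edgeR adjusted p = 0.0234). LSM12 stood at 121, 108 and 119 CPM in shNR0B1 libraries, against 95.2, 86.5 and 86.3 CPM in shNC libraries (log2 fold change 0.37 ± 0.11, SE, edgeR adjusted p = 0.0294). Neither pair of groups overlapped. The LSM10 call was lost without shNR0B1 replicate 1 or any shNC library (adjusted p up to 0.0852), and the LSM12 call without NR0B1 OE replicate 2 or 3, shNR0B1 replicate 1 or 3 or any shNC library (up to 0.114). The LSM12 call was also lost by limma on log2(FPKM + 1) or log2(FPKM + 0.1) (adjusted p = 0.0648 and 0.065), without the filter (0.0613), with the replicate block (0.0502) and with only the 6 libraries compared (0.0611), as was that of LSM10 with only those 6 (0.0807). Of the family leaders, HNRNPA1 stood at 664, 385 and 548 CPM in shNR0B1 libraries, against 782, 705 and 716 CPM in shNC libraries, without overlap but not called (edgeR adjusted p = 0.0724). LSM14A (adjusted p = 0.828), PRPF8 (0.683), SF3B1 (0.181) and SNRPB (0.988) did not pass by the same test.

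Whether the arms differed was tested directly, as the overexpression fold change minus the knockdown fold change. By edgeR with Benjamini-Hochberg adjustment, 12 members had a higher fold change with overexpression and 0 a lower one, against 13.1% and 12.6% of all genes (25.6% in all). At an unadjusted p under 0.05 the lower ones numbered 2, as they did by DESeq2. The 12 included 6 of the 13 PRPF genes. PRPF38B had a difference of 1.52 ± 0.29 on the log2 scale (SE, edgeR adjusted p = 0.00371), PRPF39 of 1.001 ± 0.19 (adjusted p = 0.00387) and PRPF38A of 0.99 ± 0.16 (adjusted p = 0.00154). PRPF38A and PRPF39 were the members that passed in both arms with opposite signs. SRSF5, which rose in both arms, was not among the 12. With 1 library left out, between 9 (without NR0B1 OE replicate 3) and 25 (without shNR0B1 replicate 3) members had a higher fold change with overexpression.

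The control groups themselves differed. In OEC against shNC, 0 members were higher and 22 lower by edgeR, against 17.2% and 16.1% of all genes (33.4% in all), with a median log2 fold change of -0.24 over members and 0.01 over all genes. At an unadjusted p under 0.05, 5 members were higher, and 5 by DESeq2. All OEC libraries lay above all shNC libraries for 4 members and below them for 40, against 27.3% and 26.7% of all genes. In the PRPF family 10 of 13 genes were lower in OEC. PRPF38A stood at 32.6, 30.9 and 34.2 CPM in OEC libraries, against 55.1, 52.1 and 53.1 CPM in shNC libraries (log2 fold change -0.72 ± 0.11, SE, edgeR adjusted p = 0.00107), so its NR0B1 OE level lay between the controls. SRSF7 stood at 36.0, 36.0 and 36.8 CPM in OEC libraries, against 104, 96.4 and 111 CPM in shNC libraries (log2 fold change -1.51 ± 0.22, SE, edgeR adjusted p = 0.000838). The comparisons share these libraries, since OEC and shNC each enter both the arm and the contrast of controls. Leaving out shNC replicate 3 gave 13 lower members and leaving out shNR0B1 replicate 2 gave 32, while 5 were higher without OEC replicate 1. Of all genes, 20.3% were lower without shNR0B1 replicate 2, and 17.9% were higher without OEC replicate 1. NR0B1 itself was also higher in OEC than in shNC cells, at 44.4 and 16.9 CPM on average. The log2 fold change was 1.40 ± 0.39 (SE, edgeR adjusted p = 0.0189), although OEC replicate 1, at 17.9 CPM, lay within the shNC range of 13.3 to 21.1 CPM. Whether the lower members are tied to this was not tested. What else differed between the control groups is not given by the labels.

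**Figure D4:**
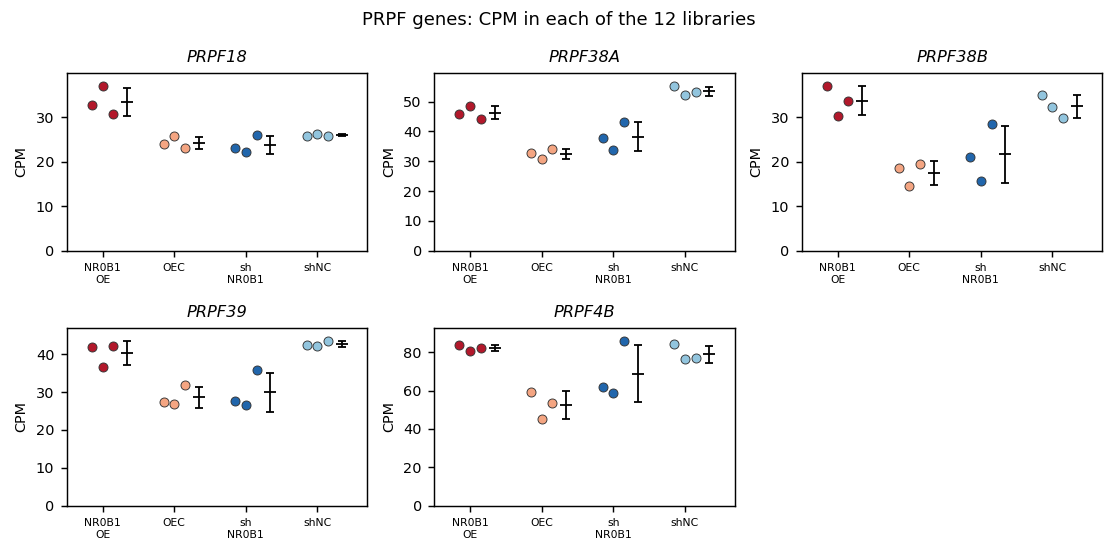
CPM (y axis, from 0) of PRPF18, PRPF38A, PRPF38B, PRPF39 and PRPF4B in each library of NR0B1 OE, OEC, shNR0B1 and shNC cells (x axis). Points are libraries and black bars the mean with its SD (n = 3). PRPF38A lies at 44.2 to 48.6 CPM in NR0B1 OE libraries and at 30.9 to 34.2 CPM in OEC libraries, and at 33.7 to 43.3 CPM in shNR0B1 libraries and at 52.1 to 55.1 CPM in shNC libraries.

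At the level of single transcripts, 228 transcripts of the 78 genes were tested among 27116 in all. With overexpression 11 were higher and 0 lower than in OEC by edgeR with Benjamini-Hochberg adjustment (9 lower at an unadjusted p under 0.05), 4.82% of them, against 4.91% of all transcripts (2.89% higher and 2.02% lower). In the knockdown 6 were higher and 10 lower than in shNC, 7.02% of them, against 6.38% of all transcripts (3.31% higher and 3.07% lower). These are the authors' estimates of how reads shared between isoforms divide, and the 8 per arm with the smallest adjusted p were followed through the alternatives. HNRNPC-203, an 8-exon isoform of HNRNPC (chr14:21210556-21265516, minus strand, GRCh38), stood at 137, 144 and 124 CPM in NR0B1 OE libraries, against 71.8, 51.8 and 44.4 CPM in OEC libraries. Its level was 59.9, 64.6 and 59.7 CPM in shNR0B1 libraries, against 92.2, 113 and 109 CPM in shNC libraries. It thus rose with overexpression (log2 fold change 1.27 ± 0.17, SE, edgeR adjusted p = 0.00652) and fell in the knockdown (-0.77 ± 0.16, edgeR adjusted p = 0.0238), while the whole gene passed in neither (edgeR adjusted p = 0.428 and 0.0903). HNRNPA2B1-201 rose with overexpression only, at 149, 142 and 159 CPM in NR0B1 OE libraries, against 66.5, 63.7 and 58.9 CPM in OEC libraries (log2 fold change 1.25 ± 0.17, SE, edgeR adjusted p = 0.00727). This isoform made up 12.6% of the gene's FPKM in NR0B1 OE cells and 5.91% in OEC cells. In the knockdown it did not pass (log2 fold change 0.05, edgeR adjusted p = 0.912). SRSF2-203 passed as a rise in both arms, at 73.4, 66.9 and 62.6 CPM in NR0B1 OE libraries against 29.3, 28.3 and 29.6 CPM in OEC libraries (edgeR adjusted p = 0.0383), and at 71.7, 31.9 and 84.4 CPM in shNR0B1 libraries against 28.2, 32.2 and 27.0 CPM in shNC libraries (edgeR adjusted p = 0.0456), where replicate 2 lay within the shNC range. The calls of HNRNPC-203 and HNRNPA2B1-201 with overexpression held in all 12 omissions of 1 library. The knockdown call of HNRNPC-203 was lost without shNR0B1 replicate 1 or 3 or shNC replicate 2 or 3 (adjusted p up to 0.0879), and the overexpression call of SRSF2-203 in 10 of the 12 omissions (up to 0.128), all but those of shNR0B1 replicates 2 and 3. Without the filter the adjusted p of SRSF2-203 was 0.0627, and with the replicate block 0.0714. Between 2 and 25 member transcripts rose with overexpression when 1 library was left out, the fewest without NR0B1 OE replicate 2 and the most without OEC replicate 1. In the knockdown the rises numbered 1 without shNC replicate 1 and 13 without shNR0B1 replicate 2, and the falls 2 without shNC replicate 3.

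In the knockdown arm a pair of isoforms stood at or near 0 in 1 group. HNRNPUL1-207 stood at 0.0531, 0 and 0 CPM in shNR0B1 libraries, against 46.1, 40.4 and 35.9 CPM in shNC libraries, which is 1 count against 2130. The level in shNC was 2124 times that in shNR0B1, with a counting interval of 380.7 to 83920 that covers counting error only (edgeR adjusted p = 0.0133). Its level was 13.3, 2.48 and 26.4 CPM in NR0B1 OE libraries, against 6.08, 9.99 and 0 CPM in OEC libraries, so the estimate varied widely between replicates. SNRPA1-212 stood at 2.87, 2.08 and 4.61 CPM in shNR0B1 libraries, against 0 in all 3 shNC libraries, at least 53.8-fold higher when shNC is set to a floor of 3 counts over the group (edgeR adjusted p = 0.00842). The HNRNPUL1-207 call was lost without shNR0B1 replicate 1 (adjusted p = 0.0646), and that of SNRPA1-212 held in all 12 omissions.

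Other genes of the pathway were counted in lists chosen by function. With overexpression, 12 of 57 other spliceosome components rose and 0 fell by edgeR, against 9.87% higher and 8.2% lower among all genes tested, with 3 falls at an unadjusted p under 0.05 and 1 by DESeq2 (median log2 fold change 0.28, against -0.03 over all genes), among them CWC25 (log2 fold change 2.06, edgeR adjusted p = 0.00725) and CWC22 (0.66, adjusted p = 0.00712), which links the spliceosome to the exon junction complex. Of 28 SR protein kinases and RS-domain partners, 7 rose and 2 fell. CLK2, a kinase of SR proteins, fell by 1.44 on the log2 scale, to 8.80, 7.83 and 6.5 CPM in NR0B1 OE libraries, against 19.3, 21.9 and 21.7 CPM in OEC libraries (edgeR adjusted p = 0.00123). SREK1 (1.01, adjusted p = 0.00278) and SCAF8 (0.77, adjusted p = 0.0043) rose by the same test. Of 35 other splicing regulators 6 rose and 0 fell (1 fall at an unadjusted p under 0.05, and 1 by DESeq2), led by RBM5 (1.09, adjusted p = 0.00722), PSPC1 (0.93, adjusted p = 0.0178) and RBMX (0.78, adjusted p = 0.018). Of 22 genes for snRNP assembly and import 11 rose and 0 fell (median 0.43, with 1 fall at an unadjusted p under 0.05 and 0 by DESeq2). MEPCE, the capping enzyme of 7SK RNA, stood at 123, 126 and 122 CPM in NR0B1 OE libraries, against 54.2, 46.4 and 42.2 CPM in OEC libraries (log2 fold change 1.38, edgeR adjusted p = 0.000525), and TGS1 (0.72, adjusted p = 0.00799) and DDX20 (0.93, adjusted p = 0.0092) rose too. Of 15 exon junction complex and nonsense-mediated decay genes 7 rose and 0 fell (median 0.46, with 0 falls at an unadjusted p under 0.05 and 0 by DESeq2), led by CASC3 (0.97, adjusted p = 0.00199), UPF2 (0.74, adjusted p = 0.00321) and SMG8 (0.92, adjusted p = 0.00376). Of 8 decapping partners of the cytoplasmic LSM ring, EDC3 alone rose (0.63, edgeR adjusted p = 0.00908).

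In the knockdown, where 12.4% of all genes tested were higher and 11.5% lower, 0 of the 57 other spliceosome components rose by edgeR (2 at an unadjusted p under 0.05, and 1 by DESeq2) and 9 fell (median log2 fold change -0.15, against 0.03 over all genes), led by SNW1 (-0.63, edgeR adjusted p = 0.00189), CWC22 (-0.76, adjusted p = 0.00216) and PLRG1 (-0.77, adjusted p = 0.00338). Of the 28 kinases and RS-domain partners 1 rose and 6 fell, led by LUC7L2 (-1.004, adjusted p = 0.000947), SREK1 (-0.84, adjusted p = 0.00341) and ACIN1 (-0.48, adjusted p = 0.00711). Of the 35 other regulators 3 rose and 4 fell: KHDRBS1 (0.53, adjusted p = 0.00131) and NONO (0.53, adjusted p = 0.0128) rose and MBNL2 fell (-0.97, adjusted p = 0.00949). Of the 22 assembly genes 2 rose and 2 fell, with PRMT5 (-0.54, adjusted p = 0.0115), the methylase of Sm proteins, MEPCE (-0.46, adjusted p = 0.0299) and GEMIN4 (0.75, adjusted p = 0.0167) foremost. Of the 15 exon junction and decay genes 1 rose and 4 fell. UPF2, a core decay factor, stood at 58.1, 69.0 and 79.2 CPM in shNR0B1 libraries, against 139, 123 and 137 CPM in shNC libraries (log2 fold change -0.95, edgeR adjusted p = 0.000481), UPF3B fell too (-1.46, adjusted p = 0.000505), and SMG8 rose (0.91, adjusted p = 0.00222). Of the 8 decapping partners 0 passed, while 2 were lower at an unadjusted p under 0.05 and 1 by DESeq2. CWC22, SREK1, MEPCE and UPF2 thus passed as rises with overexpression and as falls in the knockdown, and SMG8 as a rise in both. Unlike those of the members, single calls of genes in these lists were not followed through omissions of libraries or with assembled transcripts added.

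The library kit was not stated to keep strand, so reads of overlapping genes on opposite strands cannot be told apart. Of the 22 members called in either arm, 5 share exons with a tested gene on the other strand. MFSD11, which overlaps SRSF2 by up to 576 bases, had a log2 fold change of 0.08 with overexpression (edgeR adjusted p = 0.768), where SRSF2 rose, and of 0.80 in the knockdown (adjusted p = 0.00494). C19orf54, which overlaps SNRPA by 89 bases, had -0.43 in the knockdown (adjusted p = 0.0614). FKBP3 opposite PRPF39 and CCDC157 opposite SF3A1 did not pass in either arm, with edgeR adjusted p between 0.594 and 0.924.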

How the data were processed

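RNA of 12 libraries of A549 cells, 3 in each of 4 groups, was measured by RNA-seq. The deposited table gives expected counts per transcript, which the authors estimated with RSEM, per the submitters' processing notes, and which need not be whole. It also gives FPKM values that the authors computed from them, per the file headers. The same notes name fastp, HISAT2 2.0.5, Bowtie2 2.2.8 and StringTie 1.3.1. They list mouse genome builds, whereas the transcript identifiers are human; neither the annotation nor the strand setting of the counting is given in the sources used here. Of 82270 Ensembl transcripts, 82237 are in GENCODE 29 (GRCh38), 99.6% of them under the same symbol, and coordinates come from there. The other 13977 of 96247 entries are transcripts assembled by the authors' pipeline, with 13.3% to 15.4% of the counts of a library. They stayed out of gene values, except in 1 alternative. All 184 symbols that had been turned into dates were restored. Totals ranged from 15049011 to 22797076 counts per library, so precision was limited by the number of libraries more than by counting.

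Expected counts were summed per symbol and rounded to whole numbers. The filter on low values asked for 1 FPKM in 3 libraries and left 11908 genes. Differences were tested with edgeR 4.0.16 (R 4.3.3) by its quasi-likelihood test, with TMM scaling and all 12 libraries in 1 model. That model has 8 residual degrees of freedom and a biological coefficient of variation of 24.5%. P-values were adjusted by Benjamini-Hochberg over all genes tested and called at 0.05, and every adjusted p in the text comes from this test unless another is named. CPM are counts scaled to the TMM library size. The 27116 transcripts were tested in the same way. Both tests were tried on simulated counts with known changes. A test of isoform usage made false calls there and is not reported. All member transcripts in the table are annotated as protein-coding, so no share of decay or intron-retaining isoforms can be given. Alternatives were DESeq2 1.42.0, limma 3.58.1 on log2(FPKM + 1) or log2(FPKM + 0.1), a scale that understates changes of low genes, RLE scaling, no filter, a replicate block, only the 6 libraries compared, assembled transcripts added, and libraries left out. The members, gene lists and libraries said to stand apart were chosen with earlier results of these data known. Named genes are up to 4 called members per family and arm by adjusted p, the member of each family with the highest FPKM, members called in both arms, and up to 3 called genes per list and arm. For transcripts up to 8 called per arm were taken. Floors of 3 counts and intervals cover counting error only. Promoters are RefSeq sequences of 250 bases before a gene's start. A few genes counted in the totals are not reported here by name.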

Additional observations from a re-analysis of the deposited data

Results flagged for a closer look

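For 12 of the 78 genes the fold change with overexpression exceeded that in the knockdown, by the edgeR test of the difference itself. That is 15.4% of members, near the 13.1% of all genes that were higher in this test. Calls in either direction made up 25.6% of all genes. The difference, on the log2 scale, was 1.52 for PRPF38B, 1.001 for PRPF39, 0.99 for PRPF38A, 0.85 for PRPF4B and 0.59 for PRPF18. It was 1.05 for SRSF7, 0.78 for SRSF11, 0.93 for HNRNPU, 0.80 for SF3B4, 0.60 for SF3A1 and 0.68 for LSM1. Of the genes named, PRPF38A and PRPF39 passed in both arms, while HNRNPU, SF3B4 and LSM1 passed in neither. HNRNPU had a log2 fold change of 0.52 with overexpression and -0.41 in the knockdown (adjusted p of the difference 0.0369 by edgeR), SF3B4 of 0.53 and -0.28 (0.0369), and LSM1 of 0.35 and -0.34 (0.013). With assembled transcripts added, the difference of HNRNPU was 0.46 (edgeR adjusted p = 0.0957) and did not pass. Each arm enters this difference with its own control group, and for some of these genes the controls differed. HNRNPU averaged 306.1 CPM in OEC and 687.2 CPM in shNC cells (edgeR adjusted p = 0.00223). Its NR0B1 OE mean, 439.7 CPM, lay below its shNR0B1 mean, 519.0 CPM. SRSF7 stood at 19.1, 18.8 and 20.0 FPKM in OEC libraries, against 59.5, 52.7 and 58.7 in shNC libraries. PRPF18 and LSM1 were not called between controls (edgeR adjusted p = 0.543 and 0.168). Whether the baselines account for the differences was not tested.

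Assembled transcripts under the names of the 78 genes, which stayed out of the gene values, carried signal. Summed over 38 genes they averaged 235.5 FPKM in NR0B1 OE libraries (236.0, 236.8 and 233.6 FPKM), against 127.5, 136.5 and 143.2 FPKM in OEC libraries. The sums were 155.0, 129.3 and 197.5 FPKM in shNR0B1 libraries, against 173.3, 183.1 and 171.4 FPKM in shNC libraries. The NR0B1 OE libraries lay above all OEC libraries, whereas the shNR0B1 libraries lay on both sides of the shNC libraries. Genes entered these sums unequally. Assembled transcripts of SRSF6 stood at 69.6, 53.7 and 75.0 FPKM in NR0B1 OE libraries, against 17.5, 4.24 and 4.47 FPKM in OEC libraries. Those of SNRPA stood at 25.7, 26.7 and 25.8 FPKM, against 25.3, 42.7 and 42.0 FPKM. The higher sum is thus not a rise of every gene.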

How the results depend on the processing

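Over 781 pairs of a called gene or transcript and an alternative, 618 kept their call, 162 lost it and LSM11 with overexpression reversed, at 0.0276 on the log2 scale with assembled transcripts added. Without both libraries that stand apart, more genes passed: 4462 with overexpression, 4493 in the knockdown and 4590 between arms. Members then numbered 28 higher and 8 lower with overexpression, and 18 higher and 11 lower in the knockdown. They numbered 23 higher and 7 lower between arms, and 9 higher and 35 lower between the control groups. Transcripts numbered 3878 with overexpression (47 of members higher, 7 lower) and 3160 in the knockdown (23 of members higher). By DESeq2, 20 members were higher with overexpression, 14 lower in the knockdown, 19 higher and 2 lower between arms, and 5 higher between controls. By limma on log2(FPKM + 1), 19 members were higher between arms and 1 in the knockdown, and on log2(FPKM + 0.1) also 1 in the knockdown. The shares of all genes called by DESeq2 or limma are not given here, so these member counts have no background beside them. With only the 6 libraries compared, 0 members were lower with overexpression, 1833 genes passed in the knockdown with 0 members higher and 4 lower, and 1 member was higher between controls. With assembled transcripts added 1 member was lower between arms. With no filter, 1 member was higher in the knockdown, 636 transcripts passed with overexpression (5 of members higher) and 1006 in the knockdown (1 of members higher, 6 lower).

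With 1 library left out, 821 to 3300 genes passed with overexpression (members 3 to 27 higher, 0 to 6 lower), 1503 to 3435 in the knockdown (0 to 14 higher, 4 to 14 lower), 2127 to 3785 between arms (9 to 25 higher, 0 to 4 lower) and 2560 to 4920 between controls (0 to 5 higher, 13 to 32 lower). Transcripts ranged from 276 to 2435 with overexpression (members 2 to 25 higher, 0 to 5 lower) and from 531 to 2251 in the knockdown (1 to 13 higher, 2 to 12 lower). Which cause lies behind these shifts was not tested.

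Whether replicate numbers pair the libraries is not given by the labels. Deviations of same-numbered libraries correlated across genes at 0.197, 0.131 and 0.00837 between NR0B1 OE and OEC, and at -0.00643, -0.0872 and -0.0591 between shNR0B1 and shNC. For libraries of unlike number the values ran from -0.181 to 0.131 and from -0.0806 to 0.103. Such weak correlations do not settle whether the numbers pair. With a replicate block 13 members were higher and 1 lower with overexpression (1867 genes), 1 higher and 10 lower in the knockdown (2445 genes), 16 higher and 0 lower between arms (2770 genes), and 0 higher and 23 lower between controls (3679 genes). The block left 676 transcripts with overexpression (4 of members higher, 0 lower) and 1169 in the knockdown (2 higher, 6 lower). DESeq2, limma and assembled transcripts were not run for single transcripts, and isoform usage was not run under alternatives.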

Other observations

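SNRNP200, the helicase that unwinds the U4/U6 duplex and 1 of the other spliceosome components, was named after its values were seen. Its Ensembl transcript stood at 6.75, 4.51 and 1.62 FPKM in NR0B1 OE libraries, against 0 in all 3 OEC libraries, and at 18.6, 0 and 0.41 FPKM in shNR0B1 libraries, against 0.01, 7.05 and 0 FPKM in shNC libraries. Assembled transcripts with this symbol held 93.9% of its counts and stood at 34 FPKM or more in each of the 12 libraries. The gene was not called with overexpression (edgeR adjusted p = 0.124).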
